A study of Homo sapiens with 14 samples.

Results

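YAP 5SA, a hyperactive form of the transcriptional coactivator YAP, was compared with empty retroviral vectors in MCF-10A cells, an immortalised and non-tumorigenic human mammary epithelial line. The comparison uses 6 of the 14 libraries of the series: 2 of cells infected with YAP 5SA, 2 of cells with the empty pMSCV Hygro vector and 2 of cells with the empty pMSCV Puro vector. Every culture was infected with retrovirus and harvested on day 2, so the vector libraries share the infection with the YAP 5SA libraries. The labels do not name the vector that carried YAP 5SA, and both vectors therefore served as controls. They do not say either whether replicates are separate cultures, so p values measure the spread between these libraries, which may be technical. The other 8 libraries express forms of MRTFB and enter the comparison only where named. As a model the line is a single one, expression is forced from a retrovirus, and the share of infected cells is not given.

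Loci were kept when they had a gene name and at least 1 FPKM (fragments relative to transcript length and to sequencing depth) in at least 2 of the 6 libraries, which left 12318 of 27543 named loci. All differences below are on the log2(FPKM + 1) scale, given with the standard error (SE) from limma, and p values were adjusted over the 12318 loci by the method of Benjamini and Hochberg with a threshold of 0.05. The added 1 makes the difference of a weakly expressed gene smaller than its ratio. A locus lay outside the vector range when both YAP 5SA values were above the highest, or both below the lowest, of the 4 vector values, so that its direction did not depend on the choice of vector. Per-library values are given for YAP 5SA replicates 1 and 2, followed by Hygro vector replicates 1 and 2 and Puro vector replicates 1 and 2.

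YAP1, the gene that was introduced, was at 624.7 and 528.9 FPKM in YAP 5SA and at 32.4, 23.4, 19.2 and 19.5 FPKM in the vector libraries. Its value does not separate the introduced from the cells' own transcript. It was higher by 4.58 ± 0.39 (adjusted p = 0.0023), and the YAP 5SA libraries matched their label. No value checked which vector libraries are Hygro and which are Puro. The cell type matched its markers: all 14 basal mammary markers reached 1 FPKM in some library, and 9 of 12 luminal markers did, with PGR and TFF1 listed at 0. Of the markers of other cells, none of 10 endothelial and none of 9 renal packaging line genes reached 1 FPKM, while 3 of 11 fibroblast and 5 of 12 leukocyte genes did, with COL1A2, DPT, PDPN, CD3D, CD3E and TYROBP among those listed at 0. Among the 5 was CD68, whose locus is merged with EIF4A1 and other genes.

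Puro vector replicate 1 stood apart. In it 4780 unnamed loci reached 1 FPKM, against 224 to 562 in the other 5 libraries, and its relative depth, estimated from the spacing of low values, was 0.319 of that of Hygro vector replicate 1, against 0.796 to 1.40 in the others. Its correlation with the other libraries across loci was 0.808 to 0.872, whereas the YAP 5SA pair reached 0.961 and the Hygro vector pair 0.932. It remains in the comparison, since each further vector library can only narrow the set of genes outside the vector range. Without it 2303 loci lay above and 2102 below the remaining 3 vector values.

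The Hippo pathway is a kinase cascade that restrains cell number in epithelia. Its kinases, MST and LATS, phosphorylate YAP and keep it out of the nucleus. In the 5SA form serines that LATS phosphorylates are replaced by alanine, so the protein escapes that control. YAP has no DNA-binding domain of its own and reaches genes mainly through the TEAD factors, which recognise a short element at promoters and distant enhancers. Among the genes they switch on are some that feed back on the pathway.

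The element GGAATG, or its reverse complement CATTCC, was searched on both strands of RefSeq promoter windows (GRCh38.p14, 250 bases before to 50 bases after each start), matched by gene symbol only because the deposited values were made on hg19. A gene counted as holding it when any of its windows did. Of the loci higher in YAP 5SA 79 were single genes and 57 were matched to a window. MFAP5, OLR1 and CYR61 had no window and could not be searched. It was present for 22 of 57 matched genes that were higher in YAP 5SA (38.6%), for 1 of 19 that were lower (5.263%) and for 1287 of the 8689 matched single-gene loci tested (14.81%). Among loci above the vector range, most of which were not called, the share was 223 of 1253 (17.8%), and below it 111 of 930 (11.94%). Over all genes of the table it was 16.73%, and over all single windows 14.03%. The 22 include YAP1, whose value does not separate the introduced transcript from that of its own promoter. These are counts of letters in a window and say nothing of binding, and the deposited data hold no measure of YAP or TEAD on DNA. The 250 bases before the start are shown for ANKRD1 and CTGF, which encode 2 of the most used readouts of YAP activity, and for the matrix genes COL12A1 and FBN1. All 4 were higher in YAP 5SA and were picked from the genes that hold the element. Others that rose hold none, among them RGCC, HSD3B1, BCAR4, CITED2, RIMKLB and the target FGF2. Capitals mark the element, and each sequence runs 5′ to 3′ on the strand of the gene, the minus strand in every case.

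ANKRD1, chr10:90921088-90921337: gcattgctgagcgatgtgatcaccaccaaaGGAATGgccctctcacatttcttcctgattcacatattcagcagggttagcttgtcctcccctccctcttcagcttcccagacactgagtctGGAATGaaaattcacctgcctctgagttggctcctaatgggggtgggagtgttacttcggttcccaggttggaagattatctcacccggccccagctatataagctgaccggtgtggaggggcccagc
CTGF (CCN2 in RefSeq), chr6:131951373-131951622: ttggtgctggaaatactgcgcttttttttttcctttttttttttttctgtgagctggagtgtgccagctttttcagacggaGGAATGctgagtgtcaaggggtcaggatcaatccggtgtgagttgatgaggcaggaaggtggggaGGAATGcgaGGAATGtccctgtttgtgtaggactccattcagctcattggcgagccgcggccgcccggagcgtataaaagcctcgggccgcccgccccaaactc
COL12A1, chr6:75206054-75206303: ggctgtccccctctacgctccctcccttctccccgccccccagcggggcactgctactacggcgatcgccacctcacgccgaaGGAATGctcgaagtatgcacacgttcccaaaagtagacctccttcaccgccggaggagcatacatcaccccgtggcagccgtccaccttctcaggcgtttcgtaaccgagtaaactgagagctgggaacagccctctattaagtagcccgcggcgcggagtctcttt
FBN1, chr15:48644971-48645220: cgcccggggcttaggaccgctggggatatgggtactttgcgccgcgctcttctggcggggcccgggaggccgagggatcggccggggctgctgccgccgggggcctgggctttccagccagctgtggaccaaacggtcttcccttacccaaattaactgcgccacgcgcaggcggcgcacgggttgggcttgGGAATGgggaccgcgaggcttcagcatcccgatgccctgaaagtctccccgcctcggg

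In these windows CTGF holds 3 matches, beginning 169, 104 and 95 bases before the start, and ANKRD1 holds 2, at 220 and 128 bases. COL12A1 and FBN1 hold 1 each, at 167 and 58 bases.

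YAP 5SA raised a small set of genes against all 4 vector libraries and lowered a smaller one. Matrix and receptor genes such as MFAP5 and OLR1 and the YAP target ANKRD1 led the genes that rose, and the calprotectin genes S100A8 and S100A9 led those that fell. In limma with the vectors as 1 group of 4, 84 loci were higher (0.682% of those tested) and 31 lower (0.252%). Outside the vector range lay 1650 loci above (13.4%) and 1326 below (10.8%), and every called locus was among them. Of the loci outside the range, 165 cleared the vectors by a gap of 1 or more on the log2 scale above and 99 below. At the edge of this description EHD1 just entered above, with 40.05 FPKM in YAP 5SA replicate 2 against 40.04 in Hygro vector replicate 1, and ATG14 just missed. SMPD2 just entered below and ANKZF1 just missed.

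Tested against each vector alone, in a fit with 3 groups, YAP 5SA was higher than the Hygro vector at 159 loci (1.29%) and lower at 144 (1.17%). Against the Puro vector it was higher at 291 (2.36%) and lower at 179 (1.45%). Both tests called 104 loci higher and 38 lower, and none in opposite directions. Between the Puro and Hygro vectors themselves 503 loci differed (4.08%). That contrast tests whether the difference from YAP 5SA depends on which empty vector is the control, and it holds only control libraries, since YAP 5SA was measured in 1 group.

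**Figure D1:**
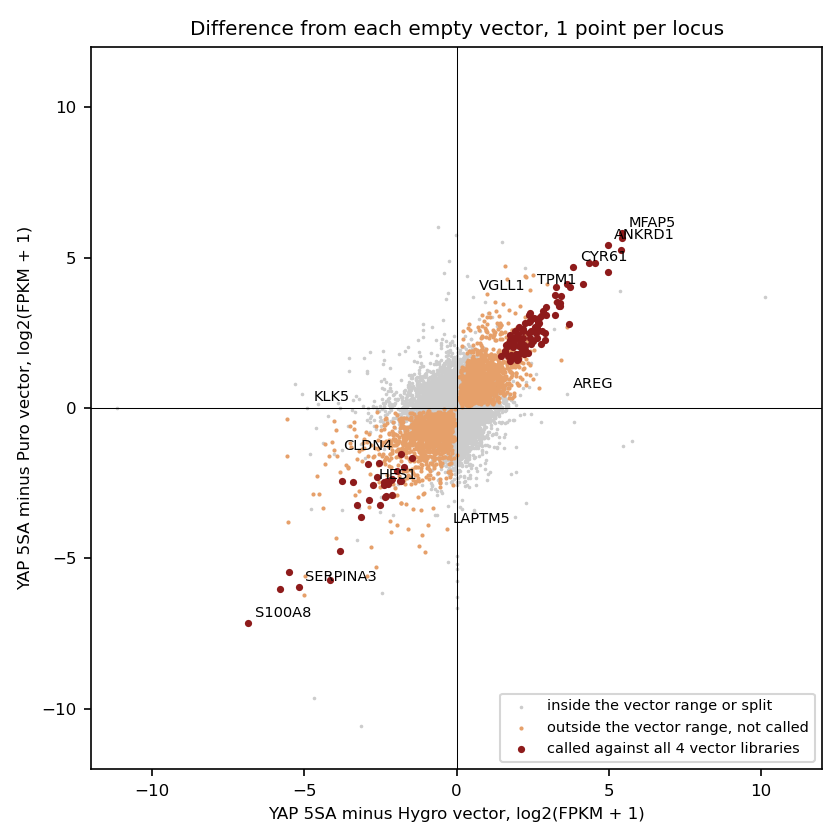
Difference of YAP 5SA from the Hygro vector (horizontal axis) and from the Puro vector (vertical axis), both on the log2(FPKM + 1) scale, with 1 point for each of the 12318 loci. Dark red points are the 115 loci called against all 4 vector libraries, orange points lie outside the vector range without a call, and the called loci sit in the quadrants where both differences have the same sign. Both axes share the YAP 5SA libraries.

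Among the genes that rose, MFAP5, a glycoprotein of elastic microfibrils, had the widest gap to the vectors. MFAP5 was at 67.8 and 79.1 FPKM in YAP 5SA and at 0.764, 0.659, 0.295 and 0.360 FPKM in the vector libraries. It was below 1 FPKM in every vector library, and the difference was 5.62 ± 0.27 (adjusted p = 0.00024). OLR1, the lectin-like receptor for oxidised low-density lipoprotein, was at 96.2 and 106.9 FPKM against 1.79, 0.985, 0.484 and 1.77 FPKM. It rose by 5.55 ± 0.34 (adjusted p = 0.00037), and YAP 5SA replicates lay close together.

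ANKRD1, a muscle ankyrin repeat protein that serves as a readout of YAP, was at 54.6 and 35.5 FPKM against 0.422, 0.457, 0.0849 and 0.0340 FPKM. All 4 vector libraries were below 0.5 FPKM, and the difference was 5.19 ± 0.31 (adjusted p = 0.00035). RGCC, a regulator of the cell cycle that binds CDK1, was at 27.8 and 42.5 FPKM against 0.107, 0.133, 0.339 and 0.746 FPKM. It was also below 1 FPKM in every vector library, with a difference of 4.76 ± 0.32 (adjusted p = 0.0005).

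Several of these genes were near or at 0 in the vectors. BCAR4, a long noncoding RNA known from antiestrogen resistance in breast cancer cells, was at 14.0 and 19.8 FPKM in YAP 5SA and listed at 0 in all 4 vector libraries (adjusted p = 0.0005), so no fold is given. HSD3B1, a dehydrogenase of steroid hormone synthesis, was at 29.6 and 26.1 FPKM, at 0.547 FPKM in Hygro vector replicate 1, at 0.042 in Puro vector replicate 2 and listed at 0 in the other two vector libraries (adjusted p = 0.00044). C4BPB, the beta chain of a complement inhibitor, was at 9.47 and 9.75 FPKM, below 0.05 FPKM in both Hygro libraries and listed at 0 in both Puro libraries (adjusted p = 0.0014). PRR9, a proline-rich protein of skin, was at 9.47 and 11.5 FPKM, at 0.233 and 0.117 in the Hygro libraries and listed at 0 in both Puro libraries (adjusted p = 0.0017). For all of these the vectors and YAP 5SA were far apart.

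CITED2 and RIMKLB rose from above 2 FPKM in every vector library, and ZBED2 from 0.300 to 2.80 FPKM. CITED2, a transcriptional coregulator that binds CBP, was at 56.6 and 77.8 FPKM against 5.71, 6.16, 2.34 and 4.05 FPKM, a difference of 3.66 ± 0.38 (adjusted p = 0.0067). RIMKLB, a glutamate ligase, was at 49.9 and 49.1 FPKM against 4.75, 4.09, 4.37 and 5.59 FPKM, a difference of 3.15 ± 0.27 (adjusted p = 0.0023). The spread within each group was small beside this gap. ZBED2, a zinc finger transcription factor, was at 33.5 and 35.6 FPKM against 0.898, 2.80, 0.300 and 2.73 FPKM, a difference of 3.87 ± 0.47 (adjusted p = 0.011).

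**Figure D2:**
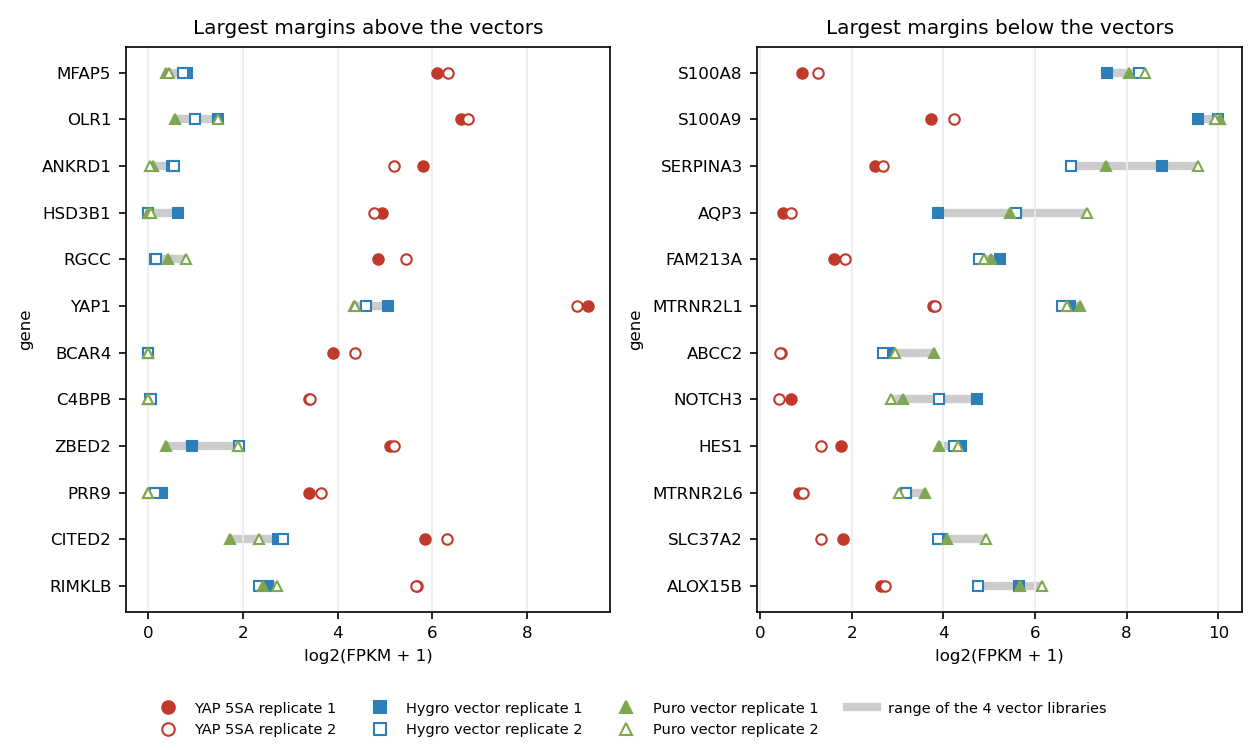
Expression, as log2(FPKM + 1) on the horizontal axis, of the 12 genes with the widest gap above and the 12 with the widest gap below the vectors among called genes at a mean of 3 FPKM or more in the higher group. Each symbol is 1 library and the grey bar spans the 4 vector libraries. No YAP 5SA symbol falls on a grey bar, which is how the genes were chosen.

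Genes of the YAP/TEAD target list moved mostly upward. Of 33 measured members 6 rose and none fell, where 0.682% of all loci rose and 0.252% fell. Above the vector range lay 18 and below it 1, against 13.4% and 10.8% of all loci. The median difference was 1.24, against 0.002 over all loci. The members were chosen with earlier results of these data known, so this count is no independent evidence of direction. The 6 that rose were ANKRD1, CYR61, CTGF, CRIM1, TEAD1 and FGF2.

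CYR61, a secreted matricellular protein, was at 478.1 and 265.8 FPKM in YAP 5SA and at 16.4, 35.1, 5.85 and 26.9 FPKM in the vector libraries, a difference of 4.27 ± 0.67 (adjusted p = 0.032). CTGF, its close relative, was at 74.1 and 37.0 FPKM against 2.23, 6.65, 1.12 and 6.54 FPKM, a difference of 3.58 ± 0.59 (adjusted p = 0.037). In both genes YAP 5SA replicate 1 was the higher of the pair and Puro vector replicate 1 the lowest of the vectors, with no overlap between the groups. CTGF passed against the Puro vector (3.74 ± 0.69, adjusted p = 0.034) and narrowly missed against the Hygro vector (3.43 ± 0.69, adjusted p = 0.052). CRIM1, a transmembrane protein that binds BMPs, was at 135.8 and 126.2 FPKM against 35.4, 22.0, 15.3 and 29.3 FPKM (2.38 ± 0.42, adjusted p = 0.048).

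FGF2, a fibroblast growth factor, was below 1 FPKM in every vector library (0.449, 0.216, 0.410 and 0.936 FPKM) and at 4.76 and 5.80 FPKM in YAP 5SA (2.08 ± 0.30, adjusted p = 0.025). AMOTL2 and IGFBP3 passed against each vector but not against the 4 together, because the vectors differed from each other. AMOTL2, an angiomotin that holds YAP at junctions, was at 101.1 and 74.5 FPKM against 28.0, 23.7, 8.57 and 7.89 FPKM. Its difference was 1.71 ± 0.31 from the Hygro vector (adjusted p = 0.043) and 3.25 ± 0.31 from the Puro vector (adjusted p = 0.0056), and the vectors differed by -1.54 ± 0.31 (adjusted p = 0.049). IGFBP3, which binds insulin-like growth factors, differed by 2.24 ± 0.39 from the Hygro vector (adjusted p = 0.039) and by 4.40 ± 0.39 from the Puro vector (adjusted p = 0.0041).

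Other members lay above the vector range without passing. FSTL1, a secreted glycoprotein measured with MIR198 as 1 locus, was at 108.5 and 93.9 FPKM against 5.02, 10.5, 5.03 and 41.1 FPKM (adjusted p = 0.13). GADD45A, a stress-inducible regulator of growth, was at 81.7 and 55.2 FPKM against 10.7, 52.4, 8.94 and 9.16 FPKM, so that Hygro vector replicate 2 nearly reached the lower YAP 5SA value. Not every member pointed upward. HBEGF, a growth factor for EGFR, lay below the range at 4.30 and 2.84 FPKM against 7.50, 11.2, 7.87 and 16.5 FPKM (-1.32 ± 0.37, adjusted p = 0.20). For AXL, NT5E, GGH and AREG the vector libraries enclosed the YAP 5SA values, and in each of them Puro vector replicate 2 was the highest of all 6.

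**Figure D3:**
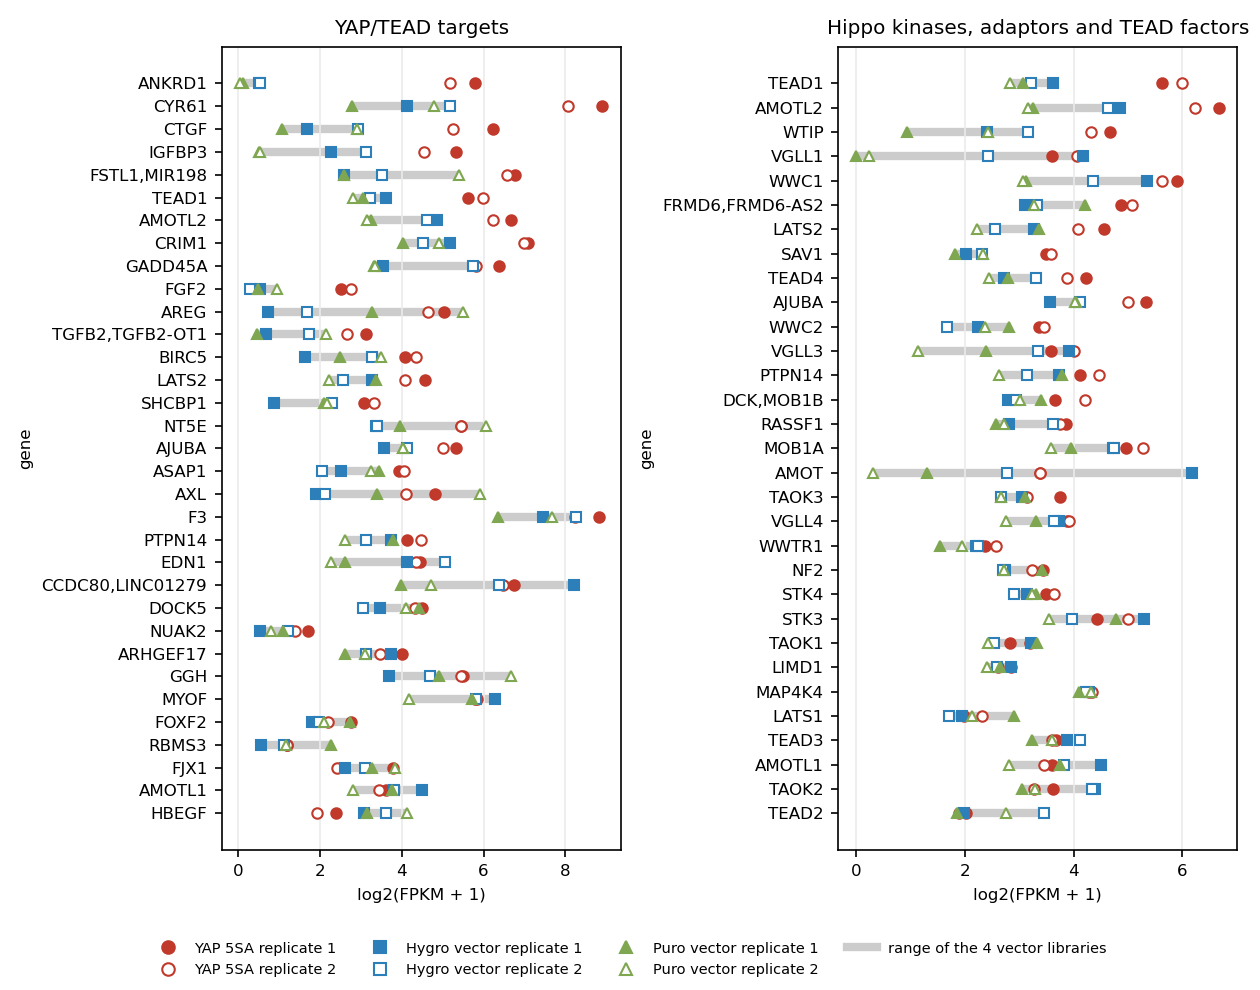
Expression, as log2(FPKM + 1) on the horizontal axis, of the 33 measured YAP/TEAD targets (left) and the 31 measured Hippo kinases, adaptors and TEAD factors (right), ordered by their difference from the vectors. Each symbol is 1 library and the grey bar spans the 4 vector libraries: 18 genes of each panel have both YAP 5SA symbols to the right of the bar. Some genes, TEAD1 among them, are in both panels.

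Of the Hippo pathway's own genes and the TEAD factors, TEAD1 alone passed against the 4 vectors. It was at 48.1 and 62.3 FPKM in YAP 5SA and at 11.2, 8.29, 7.37 and 6.06 FPKM in the vector libraries, a difference of 2.62 ± 0.33 (adjusted p = 0.014) with no overlap. TEAD4 lay above the range at 17.8 and 13.8 FPKM (1.25 ± 0.32, adjusted p = 0.16), whereas TEAD3 differed by -0.07 ± 0.33 and TEAD2 by -0.56 ± 0.46, both within the range of the vectors. Whether TEAD1 differed from its paralogs in its response was not tested.

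Of the 31 measured genes in this list 18 lay above the vector range and none below, against 13.4% and 10.8% of all loci, and the median difference was 0.87. AMOTL1, AMOTL2, AJUBA, LATS2, PTPN14 and TEAD1 are also on the YAP/TEAD target list. All of them but AMOTL1 lay above the range, so the counts of the lists overlap. The members of this list too were chosen with earlier results of these data known. Upstream, SAV1, the scaffold of the MST kinases, was at 10.2 and 10.99 FPKM against 3.07, 3.95, 2.54 and 4.03 FPKM (1.41 ± 0.27, adjusted p = 0.073), and it passed against the Puro vector (adjusted p = 0.043). LATS2, a kinase that phosphorylates YAP and a YAP target itself, was at 22.6 and 15.8 FPKM against 8.61, 4.88, 9.29 and 3.63 FPKM (1.47 ± 0.40, adjusted p = 0.19). Its paralog LATS1 differed by -0.02 ± 0.37. The LIM proteins AJUBA and WTIP, which bind LATS kinases, lay above the range with differences of 1.24 ± 0.32 and 2.26 ± 0.56 (adjusted p = 0.16 and 0.14). WTIP, WWC1, AMOTL2 and VGLL1 were among the 6 members higher against the Puro vector, and for VGLL1, a TEAD cofactor, the Hygro libraries at 17.0 and 4.38 FPKM enclosed the YAP 5SA values of 11.1 and 15.6 FPKM. Against the Hygro vector only TEAD1 and AMOTL2 passed. Over all loci 2.36% were higher against the Puro vector and 1.29% against the Hygro vector. WWTR1, which encodes the YAP paralog TAZ, was at 4.13 and 4.91 FPKM, just above the vectors at 1.92 to 3.71 FPKM (adjusted p = 0.62).

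Ligands and receptors of the EGFR family did not pass in limma against the 4 vectors in any of 11 measured genes (3 at an unadjusted p under 0.05). Of these genes 5 lay above the vector range and 1 below, against 13.4% and 10.8% of all loci. AREG, the EGFR ligand amphiregulin, showed how far the answer can depend on the vector. It was at 31.8 and 23.9 FPKM in YAP 5SA, at 0.668 and 2.23 FPKM in the Hygro vector and at 8.59 and 44.5 FPKM in the Puro vector. It passed against the Hygro vector (3.62 ± 0.70, adjusted p = 0.049) and not against the Puro vector (0.45 ± 0.70, adjusted p = 0.72), and the difference between the vectors just missed (3.17 ± 0.70, adjusted p = 0.054). NRG1, a ligand of ERBB receptors, lay above the range at 3.50 and 2.38 FPKM (1.15 ± 0.34, adjusted p = 0.23), and EGFR itself at 52.2 and 50.4 FPKM against 24.2, 23.1, 39.9 and 46.9 FPKM (0.66 ± 0.41, adjusted p = 0.62).

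Over all loci 0.682% rose and 0.252% fell, and 13.4% lay above and 10.8% below the vector range. Of 20 measured extracellular matrix genes 3 rose and none fell, with 7 above and 3 below the range and a median of 0.23. Beside MFAP5, these were its microfibril partner FBN1 and the fibril-associated collagen gene COL12A1. COL12A1 was at 67.5 and 50.9 FPKM against 5.82, 3.70, 2.63 and 7.97 FPKM, a difference of 3.39 ± 0.41 (adjusted p = 0.011). FBN1, which encodes fibrillin, was at 9.35 and 6.83 FPKM against 0.277, 0.362, 0.676 and 1.49 FPKM (2.46 ± 0.35, adjusted p = 0.023). COL12A1 differed by 3.40 ± 0.46 from the Hygro vector and by 3.39 ± 0.46 from the Puro vector, and FBN1 by 2.77 ± 0.31 and 2.14 ± 0.31. THBS1, the matricellular thrombospondin, was at 302.2 and 180.2 FPKM against 10.7, 52.2, 8.94 and 40.2 FPKM (3.38 ± 0.75, adjusted p = 0.11). COL1A1, a defining fibroblast gene, was below the range at 0.832 and 0.485 FPKM, against at least 1.05 FPKM in every vector library. The summed fibroblast markers came to 65.5 and 72.1 FPKM in YAP 5SA and to at most 50.4 FPKM in the vectors, and most of each sum was FAP. Their part in the matrix genes was not tested. In bulk RNA fewer cells of a type and less RNA per cell cannot be told apart.

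Of 23 integrin and focal adhesion genes 1 rose, where 0.682% of all loci did. The gene that rose was the leukocyte integrin subunit ITGB2, measured with LINC01547 as 1 locus. It was at 53.3 and 39.1 FPKM against 6.31, 1.68, 2.03 and 4.60 FPKM (3.45 ± 0.45, adjusted p = 0.017). The summed leukocyte markers were lower in YAP 5SA, at 304.8 and 321.2 FPKM, than in the vectors, at 456.1 to 815.8 FPKM, and 4 of 12 were listed at 0. Most of each sum was the locus of CD68, which is merged with EIF4A1, a translation factor of all cells, and other genes, so the sum is no clean measure of leukocyte RNA. PARVA, which links integrins to actin, lay above the range at 15.9 and 17.4 FPKM (1.89 ± 0.35, adjusted p = 0.063) and passed against each vector.

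The genes that fell were led by the calprotectin pair, calcium-binding proteins of inflamed and differentiating epithelia. S100A8 was at 0.873 and 1.40 FPKM in YAP 5SA and at 189.0, 307.7, 265.4 and 337.6 FPKM in the vector libraries. The difference was -6.99 ± 0.39 (adjusted p = 0.00029), the largest decrease among the named genes. S100A9 was at 12.2 and 17.8 FPKM against 753.5, 1021, 1050 and 972.2 FPKM (-5.90 ± 0.46, adjusted p = 0.0014). For both genes the vectors lay close together and the differences from each vector were alike.

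Other genes with wide gaps below the vectors had varied roles. SERPINA3, a secreted protease inhibitor of the acute phase, was at 4.71 and 5.42 FPKM against 437.2, 109.6, 186.4 and 754.7 FPKM (-5.57 ± 0.74, adjusted p = 0.017). AQP3, a channel for water and glycerol, was at 0.409 and 0.585 FPKM against 13.7, 46.9, 42.8 and 138.4 FPKM (-4.93 ± 0.75, adjusted p = 0.029). The vector libraries spread widely for both, and none came near the YAP 5SA values. ALOX15B, a lipoxygenase, fell by 2.88 (SE 0.42, adjusted p = 0.025). ABCC2, an organic anion export pump, fell by 2.62 (SE 0.36, adjusted p = 0.019) and SLC37A2, a sugar phosphate transporter, by 2.65 (SE 0.37, adjusted p = 0.022). FAM213A, a peroxiredoxin-like protein, was at 2.06 and 2.60 FPKM against a narrow range of 26.6 to 36.8 FPKM (-3.26 ± 0.29, adjusted p = 0.0029).

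A receptor of the Notch pathway and a classic target gene of it were lower together. NOTCH3 was at 0.603 and 0.335 FPKM in YAP 5SA and at 25.7, 14.1, 7.67 and 6.25 FPKM in the vector libraries (-3.11 ± 0.51, adjusted p = 0.038). The Hygro libraries were above the Puro libraries, and that difference did not pass (-1.34 ± 0.34, adjusted p = 0.07). HES1, a transcriptional repressor that Notch receptors induce, was at 2.41 and 1.52 FPKM against 19.9, 17.7, 13.9 and 18.9 FPKM (-2.65 ± 0.29, adjusted p = 0.0085). The genes were picked by their gap to the vectors, and no list of Notch genes was examined.

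MTRNR2L1 and MTRNR2L6, nuclear copies of the mitochondrial ribosomal RNA gene, were also among the 12 widest gaps below. MTRNR2L1 was at 12.6 and 13.1 FPKM against 107.5, 95.4, 125.2 and 102.4 FPKM (-2.97 ± 0.34, adjusted p = 0.0095). Reads of such copies cannot be assigned with certainty, as they are near-identical to each other and to the mitochondrial gene. All MTRNR2L loci summed to 604.3 and 635.7 FPKM in YAP 5SA, to 3669 to 5680 FPKM in the vectors and to 1739 to 3152 FPKM in the MRTFB libraries. Short RNAs with a name took up 34.07% and 31.84% of all FPKM in the libraries of YAP 5SA. They took up 72.43% and 61.39% in those of the Hygro vector, and 36.83% and 76.29% in those of the Puro vector, so Puro vector replicate 1 was close to YAP 5SA. The part of library make-up in the MTRNR2L values was not tested.

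For other gene lists the difference was unlike for the vectors. The medians of squamous differentiation genes (-3.07 and -0.57), epithelial junction genes (-0.84 and -0.01) and mitosis genes (1.48 and 0.35) lay farther from 0 against the Hygro vector than against the Puro vector. Those of cholesterol synthesis genes (0.12 and 0.97) and MRTF/SRF targets (-0.35 and 1.16) lay farther from 0 against the Puro vector. In none of these lists did most members pass against the Hygro vector, or most against the Puro vector. The YAP/TEAD targets had similar medians against both, 1.45 against the Hygro vector and 1.14 against the Puro vector, where all loci had medians of -0.014 and 0.063. Comparisons with the vectors share the YAP 5SA libraries, so these medians are not independent, and no list was tested for a difference between the vectors.

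**Figure D4:**
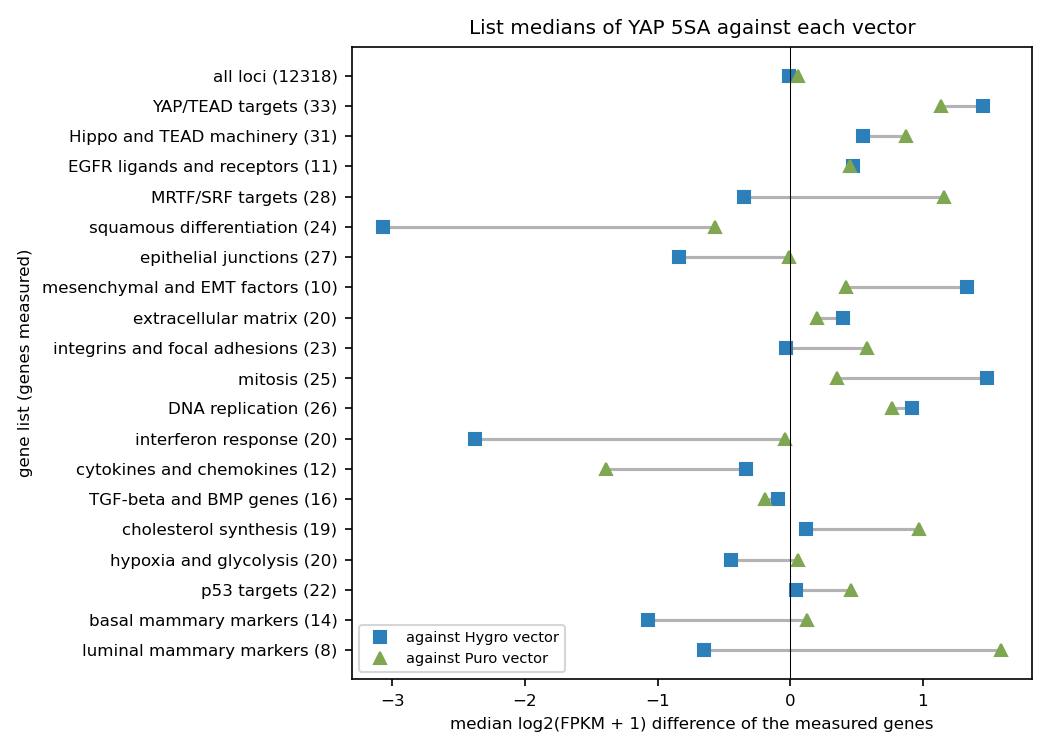
Median difference of the measured genes of each list, on the log2(FPKM + 1) scale, between YAP 5SA and the Hygro vector (blue squares) and between YAP 5SA and the Puro vector (green triangles), with all loci on top. The grey line joins the medians of a list, and is longest for squamous differentiation (-3.07 and -0.57), interferon response (-2.38 and -0.04) and luminal markers (-0.65 and 1.59).

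Of 24 measured squamous differentiation genes, which build the cornified layers of stratified epithelia, 2 fell against the 4 vectors, S100A8 and S100A9. Below the vector range lay 8 and above it 1 (KRT4), against 10.8% and 13.4% of all loci. Against the 4 vectors 20 differed downward and 4 upward. Against the Hygro vector 10 fell and none rose, and against the Puro vector 3 fell and 1 rose. Over all loci 0.252% fell against the 4 vectors, 1.17% against the Hygro vector and 1.45% against the Puro vector, where 2.36% rose. S100A7, a related calcium-binding protein, was at 0.298 and 0.174 FPKM against 23.5, 134.9, 22.7 and 11.1 FPKM (-4.66 ± 0.83, adjusted p = 0.051), and it passed against each vector. SPRR1B, a cornified envelope precursor, was at 2.08 and 1.83 FPKM against 16.2, 260.2, 55.6 and 7.17 FPKM (adjusted p = 0.27). The kallikrein proteases KLK5 and KLK6, which process the epidermal barrier, behaved differently. KLK5 was at 1.78 and 1.15 FPKM in YAP 5SA, at 178.1 and 29.2 FPKM in the Hygro vector and at 4.29 and 0.104 FPKM in the Puro vector. It fell against the Hygro vector (-4.91 ± 0.94, adjusted p = 0.049) and differed from the Puro vector by 0.02 ± 0.94, and the vectors themselves differed (-4.93 ± 0.94, adjusted p = 0.045). KLK6 followed the same pattern, with -4.62 ± 0.66 against the Hygro vector (adjusted p = 0.022) and -0.66 ± 0.66 against the Puro vector.

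None of 27 measured epithelial junction genes passed in limma against the 4 vectors (7 at an unadjusted p under 0.05). Of these genes 7 lay below and 3 above the range, against 10.8% and 13.4% of all loci. Against the Hygro vector 5 fell, where 1.17% of all loci did, and against the Puro vector none passed. CLDN4, a tight junction claudin, was at 37.7 and 21.5 FPKM against 250.2, 809.2, 74.2 and 106.3 FPKM, so that YAP 5SA was lowest throughout. Its difference was -3.94 ± 0.61 from the Hygro vector (adjusted p = 0.028) and -1.61 ± 0.61 from the Puro vector (adjusted p = 0.17). DSG3, a desmosomal cadherin, was at 47.1 and 48.4 FPKM against 215.5, 193.4, 114.2 and 70.0 FPKM. Of the mesenchymal list 4 of 10 measured genes lay above the range and 1 below, where 13.4% and 10.8% of all loci did. Among the 4, FN1, which encodes fibronectin, was at 412.3 and 207.3 FPKM against 24.9, 53.9, 3.38 and 64.3 FPKM (3.54 ± 1.02, adjusted p = 0.21). No member of that list passed in limma against the 4 vectors (3 at an unadjusted p under 0.05). TWIST1, a mesenchymal transcription factor, passed against the Hygro vector alone (1.49 ± 0.25, adjusted p = 0.036), as it was at 3.68 and 3.93 FPKM in the Puro vector and at 0.552 and 0.583 FPKM in the Hygro vector.

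None of 14 measured basal and 8 measured luminal markers passed in limma against the 4 vectors (2 and 3 at an unadjusted p under 0.05). Above the vector range lay 1 basal and 3 luminal markers, and below it 2 and 1, against 13.4% and 10.8% of all loci. Of the luminal markers 4 differed upward and 4 downward. The medians depended on the vector, at -1.07 (Hygro) and 0.13 (Puro) for basal and -0.65 and 1.59 for luminal markers. TP63, which encodes the basal transcription factor p63, lay below the range at 1.02 and 1.08 FPKM against 3.55, 5.74, 10.4 and 9.20 FPKM (-1.92 ± 0.40, adjusted p = 0.091) and passed against the Puro vector (adjusted p = 0.0096). KRT8 and KRT18, the keratin pair of simple epithelia, were above the range. KRT8 was at 1939 and 1632 FPKM against 739.6, 1093, 121.6 and 132.8 FPKM, and KRT18 at 2497 and 2266 FPKM against 401.3, 770.5, 126.8 and 402.0 FPKM. KRT8 passed against the Puro vector (3.80 ± 0.53, adjusted p = 0.015) and not against the Hygro vector (0.98 ± 0.53, adjusted p = 0.36), and the vectors differed by -2.81 ± 0.53 (adjusted p = 0.043). GATA3, a luminal transcription factor, lay above the range at 24.8 and 20.5 FPKM (1.77 ± 0.46, adjusted p = 0.16).

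Cell cycle genes did not pass, and many lay above the vectors. Of 26 DNA replication genes 14 were above the vector range and none below, with a median of 0.82, and of 25 mitosis genes 11 were above and none below, with a median of 0.96. Over all loci 13.4% lay above and 10.8% below. None passed in limma against the 4 vectors (11 and 5 at an unadjusted p under 0.05), and 1 of each list passed against the Hygro vector. CDC6, which loads the replicative helicase, was at 11.5 and 11.7 FPKM against 2.08, 6.50, 3.36 and 3.38 FPKM (1.45 ± 0.37, adjusted p = 0.15). PRC1, which bundles spindle microtubules, was at 32.0 and 33.3 FPKM against 3.92, 10.6, 13.6 and 19.4 FPKM (1.56 ± 0.54, adjusted p = 0.31). Hygro vector replicate 1 was the lowest of the 6 libraries in both, and without it the medians against the Hygro vector went from 0.92 to 0.22 for DNA replication and from 1.48 to 0.89 for mitosis. Without Hygro vector replicate 2 they were 1.56 and 2.10.

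The listed MRTF/SRF targets, of the other coactivator in the series, were mostly actin and contractile genes, with the immediate early genes FOS, EGR1 and JUNB. Their median was of opposite sign against the Hygro and Puro vectors. Against the 4 vectors 21 differed upward and 7 downward, with a median of 0.40. Above the range lay 5 (TPM1, TPM2, FHL2, CALD1 and TUFT1) and below it 4 (ITGA5, JUNB, EGR1 and FOS), against 13.4% and 10.8% of all loci. None of 28 measured genes passed in limma against the 4 vectors (7 at an unadjusted p under 0.05), and the median was -0.35 against the Hygro vector and 1.16 against the Puro vector. Without Hygro vector replicate 2 the median against the Hygro vector was 0.37, and without replicate 1 it was -0.96. The counts also rested on replicate 2. Without it 14 members lay above the remaining vector libraries and 4 below, where 2521 and 1809 of all 12318 loci did. In limma against those vector libraries 2 members then passed, both higher, and the median was 0.93. Without replicate 1 none passed, and the median was 0.38. TPM1, a tropomyosin, was at 310.7 and 269.2 FPKM against 23.4, 118.1, 19.2 and 17.3 FPKM, with Hygro vector replicate 2 far above the other vectors (3.17 ± 0.75, adjusted p = 0.13). The immediate early gene EGR1 lay below the range at 2.48 and 1.68 FPKM against 6.57, 6.20, 8.38 and 10.4 FPKM (-1.52 ± 0.30, adjusted p = 0.077).

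Interferon response genes had a median of -2.38 against the Hygro vector and -0.04 against the Puro vector, and the first of these depended on Hygro vector replicate 1. OAS1, an antiviral enzyme, was at 165.2 FPKM in that library, at 11.8, 4.08 and 3.66 FPKM in the other vector libraries and at 1.77 and 2.13 FPKM in YAP 5SA. BST2, which tethers budding virus, was at 171.3 FPKM there and at 1.11 to 3.28 FPKM in the other vectors. Without Hygro vector replicate 1 the median against the Hygro vector was -0.76. None of 20 measured genes passed in limma against the 4 vectors (none at an unadjusted p under 0.05 either). Below the range lay 7 and above it none, against 10.8% and 13.4% of all loci. The absence of members above also depended on Hygro vector replicate 1. Without that library 7 lay below the remaining vector libraries and 5 above, where 1625 and 1970 of all 12318 loci did. None passed in limma against those libraries, with 5 at an unadjusted p under 0.05.

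Cholesterol synthesis genes lay above the range in 7 of 19, with none below and none called in limma against the 4 vectors (4 at an unadjusted p under 0.05). Of all loci 13.4% lay above the range and 10.8% below. IDI1, an isomerase of the pathway, was at 111.7 and 154.1 FPKM against 54.0, 78.2, 21.4 and 10.7 FPKM, and passed against the Puro vector (3.03 ± 0.43, adjusted p = 0.015). The interleukins IL1A and IL1B were high in the Puro vector: IL1B was at 0.343 and 0.390 FPKM in YAP 5SA, at 0.704 and 0.461 in the Hygro vector and at 4.77 and 6.82 in the Puro vector, and it fell against the Puro vector alone (-2.30 ± 0.28, adjusted p = 0.0096). None of the 16 TGF-beta and BMP genes, 20 hypoxia and glycolysis genes or 22 p53 targets passed in limma against the 4 vectors (5, 3 and 4 at an unadjusted p under 0.05). NDRG1, a hypoxia-inducible gene, was above the range at 80.5 and 120.0 FPKM against 12.1, 30.6, 7.09 and 39.2 FPKM (adjusted p = 0.19), and HK2, the glycolytic hexokinase, below it at 3.05 and 2.26 FPKM against 6.90, 7.24, 8.18 and 7.70 FPKM (adjusted p = 0.091).

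Levels of some of the leading genes and of CTGF in MRTFB dN, the actin-independent form of MRTFB, are set beside these without a test. ANKRD1 was at 982.4 and 639.1 FPKM there, far above YAP 5SA, and CTGF at 4712 and 4472 FPKM. MFAP5 was at 3.60 and 5.50 FPKM, OLR1 at 0.981 and 2.14 FPKM, and RGCC at 0.550 and 0.761 FPKM, all far below YAP 5SA. S100A8 was at 0.821 and 2.47 FPKM and S100A9 at 9.48 and 8.65 FPKM, close to the YAP 5SA values. HES1, at 12.7 and 12.2 FPKM, and NOTCH3, at 10.7 and 9.45 FPKM, were nearer to the vectors. Of the genes named here that rose in YAP 5SA, ANKRD1 and CTGF were thus higher in MRTFB dN than in YAP 5SA, and MFAP5, OLR1 and RGCC lower. MFAP5 was still above its value in every vector library.

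The calls rest on 2 libraries of YAP 5SA. Without YAP 5SA replicate 1 only 8 loci were higher and 2 lower against the 4 vectors, and without replicate 2 the counts were 9 and 4. Of the named genes MFAP5, OLR1, ANKRD1, HSD3B1, RGCC, BCAR4 and S100A8 passed in both of these fits.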

How the data were processed

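RNA of MCF-10A cells was sequenced from stranded mRNA libraries as paired reads, per the labels' protocols. The authors deposited FPKM values, 1 column per library, for 34071 loci. Bowtie, TopHat, Cufflinks, Cuffnorm and the hg19 build are named in the submitters' processing notes, and versions, annotation and library scaling are not given in the sources used here. FPKM holds no counts, so no counting interval or floor can be given. Unnamed loci (6528) were left out of the tests.

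The 12318 named loci that passed the filter, some of them with several gene names, entered limma 3.58.1 (R 4.3.3) as log2(FPKM + 1). Its two-sided moderated test used a variance trend over intensity and Benjamini-Hochberg adjustment over all loci. The scripts were tested on simulated data beforehand. The main fit had 2 groups, YAP 5SA and the 4 vector libraries, with 4 residual degrees of freedom, and a second fit had 3 groups with 3. Python 3.11.15 served for tables (pandas 2.3.3, numpy 2.4.6) and figures (matplotlib 3.10.9). Named genes are the 12 widest gaps above and below the vectors among called single-gene loci at a mean of 3 FPKM or more in the higher group that are no short RNAs, the YAP/TEAD, Hippo and EGFR lists, and from each other list up to 4 members outside the range and up to 2 that passed against 1 vector and overlapped with the other. Not all of them are described. The members and lists were chosen with earlier results of these data known. Alternatives changed the pseudocount (0.1), dropped the filter or the trend, rescaled libraries by their median ratio and added a replicate block. Others fitted 13 libraries or 3 groups, or left out each of the 6 libraries in turn. The 13 libraries are all of the series except MRTFB dN dPY replicate 1. Replicate numbers were not used as pairs, and no libraries were identical.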

Additional observations from a re-analysis of the deposited data

Results flagged for a closer look

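Among the 4 vector libraries Puro vector replicate 1 was far from the others in the number of unnamed loci at 1 FPKM or more (4780) and in the share of its FPKM sum in unnamed loci (58.77%). HSD3B1 was at 0.5467 FPKM in Hygro vector replicate 1, far from the other vector libraries. It was found among 24 named genes examined for a lone vector library, and chance alone sets apart a library in about 1 of 20 such groups.

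The empty vectors differed from each other, by the limma test of Puro against Hygro, for 12 of the named loci, so the difference of YAP 5SA from its control depends there on the vector chosen. Puro minus Hygro was negative for 8 of them: AMOTL2 differed by -1.54, IGFBP3 by -2.17, EDN1 by -2.15, the CCDC80,LINC01279 locus by -2.95, VGLL1 by -3.18, KLK5 by -4.93, KLK6 by -3.96 and KRT8 by -2.81 on the log2(FPKM + 1) scale. It was positive for the other four: TWIST1 differed by 1.62, IL1A by 1.88, IL1B by 2.09 and LAPTM5 by 3.70.

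Of 735 unnamed loci that passed the filter, which no comparison used, 58 (7.891%) had both YAP 5SA values above all 4 vector values and 83 (11.29%) had both below. Of the named loci tested 13.4% lay above and 10.8% below. In Puro vector replicate 1 4780 unnamed loci reached 1 FPKM, and the part of that library in these counts was not tested.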

How the results depend on the processing

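None of the 32 named genes called against the 4 vectors changed sign under any alternative, and all 32 kept the call after scaling by the median of ratios, without the intensity trend, with 13 libraries or 3 groups in the fit, and without Puro vector replicate 1. There were 28 with a pseudocount of 0.1, 18 with no filter, 27 without each of Hygro vector replicates 1 and 2 and Puro vector replicate 2, and 7 without either YAP 5SA library.

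The number of calls varied more (higher and lower loci). Against the 4 vectors there were 84 and 31, and 55 higher with a pseudocount of 0.1, 9 lower with no filter, 495 and 340 with 13 libraries, and 244 and 144 with 3 groups. With no filter there were 24 and 7 against the Hygro vector, 72 and 44 against the Puro vector and 0 between the vectors in limma (4148 of 20278 loci at an unadjusted p under 0.05), and 2026 loci below the vector range. With 13 libraries there were 447 and 496, 580 and 425, and 623 and 973. Leaving out each library gave 8 to 92 higher and 2 to 44 lower against the 4 vectors, 9 to 426 and 4 to 447 against the Hygro vector, 12 to 478 and 6 to 853 against the Puro vector, and 3 to 1119 and 3 to 652 between the vectors. It gave 1970 to 2556 loci above and 1625 to 2266 below the vector range. A fit without 1 library has fewer residual degrees of freedom, and it leaves a group of 1, assumed to vary like the others, except against the 4 vectors without a vector library. The alternatives for the comparison of the vectors, and the lists without libraries other than Puro vector replicate 1, were chosen after seeing the data.

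The replicate number as a block gave 41 and 14 calls against the 4 vectors, 249 lower against the Hygro vector, and 337 and 549 between the vectors. Same-numbered libraries did not deviate together between YAP 5SA and either vector (r = -0.059 for both) and did between the vectors (r = 0.247), so the numbers were not taken to pair YAP 5SA with the vectors. Under the block 24 of the 32 named genes kept the call, and CTGF (adjusted p = 0.058), CYR61 (0.055), CRIM1 (0.11), FGF2 (0.061), FBN1 (0.058), NOTCH3 (0.072), SLC37A2 (0.055) and ALOX15B (0.059) did not. Of the lists, YAP/TEAD targets had 2 higher members without Hygro vector replicate 1 and 1 without either YAP 5SA library, against 6.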

Other observations

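Further genes passed against all 4 vector libraries outside the lists, and those named here were chosen after their values were seen. SKP2, the ubiquitin ligase subunit that degrades the cell cycle inhibitor p27, was at 49.7 and 61.4 FPKM in YAP 5SA and at 2.73, 4.01, 6.63 and 7.44 FPKM in the vectors (3.26 ± 0.39, limma adjusted p = 0.011). The neighbouring basement membrane collagen genes COL4A3 (2.55 ± 0.29, adjusted p = 0.0095) and COL4A4 (2.68 ± 0.31, adjusted p = 0.0095) rose together, whereas COL4A1 and COL4A2 did not pass. PSG4 and PSG5, pregnancy-specific glycoproteins better known from the placenta, rose by 3.15 ± 0.31 (adjusted p = 0.0054) and 2.63 ± 0.28 (adjusted p = 0.0073). These family members are near-identical, so reads may be split between them. HEG1, a receptor of endothelial junctions, went from 5.17, 4.14, 1.45 and 5.28 FPKM to 61.5 and 44.7 FPKM (3.51 ± 0.43, adjusted p = 0.012).

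The locus that holds MIR137 and its host gene MIR137HG was at 35.5 and 49.3 FPKM in YAP 5SA and below 0.2 FPKM in every vector library (5.32 ± 0.27, limma adjusted p = 0.00024). Its value does not separate the microRNA precursor from the host transcript. The sarcomere and muscle genes MYPN (1.86 ± 0.32, adjusted p = 0.041), NEXN (2.37 ± 0.33, adjusted p = 0.021) and ANKRD2 (2.85 ± 0.34, adjusted p = 0.011) rose, as ANKRD1 did. The MRTF/SRF list had no called member in the main fit, which depended on Hygro vector replicate 2.

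Further single genes fell. DEFB1, an antimicrobial defensin, was at 2.03 and 2.37 FPKM against 10.3, 16.2, 10.3 and 22.5 FPKM (-2.24 ± 0.37, limma adjusted p = 0.038). The sodium channel subunit SCNN1B changed by -2.48 ± 0.34 (adjusted p = 0.019), the chloride channel regulator CLCA2 by -2.51 ± 0.42 (adjusted p = 0.041) and the cell adhesion gene PVRL1 by -2.45 ± 0.36 (adjusted p = 0.025). The small nucleolar RNA SNORA49 was listed at 0 in both YAP 5SA libraries and at 32.7 to 55.8 FPKM in the vectors. Such short loci can reach a high FPKM from few reads.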
